A study of Homo sapiens with 12 samples.

Results

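The 268 transcript clusters described here had more polysomal RNA in cells given interferon-gamma (IFNg) and silvestrol than in cells given IFNg alone, while their total RNA was nearly the same in both. They were chosen from 65535 clusters, each of them the probes laid out for 1 transcribed locus. The cells were A375, an established human melanoma line, and the arrays were 12 Affymetrix arrays in 6 groups of 2. Cells received IFNg for 24 h with silvestrol for 2 h, IFNg for 24 h, or DMSO for 2 h, and polysomal and total RNA were taken from each treatment. A vehicle is named for no IFNg sample, and silvestrol was given only together with IFNg. The replicates are not stated to be separate cultures, so p-values measure only the spread between these samples, which may be technical. The clusters lie on chromosomes 1 to 8 and part of 9, by the digits of the array maker's identifiers, and those of other chromosomes were not analysed here.

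Members met 4 conditions on log2 intensity, with each difference taken between means of 2 arrays. The mean over the 12 arrays was at least 7, which 7808 clusters met and which are called bright below. The polysomal difference of IFNg+silvestrol minus IFNg was at least 1, with both silvestrol arrays above both IFNg arrays. The same difference in total RNA lay within 0.5 of 0 on either side, and the polysomal difference of IFNg minus DMSO within 1 of 0. Of the bright clusters, 1328 had a large enough polysomal difference, 1309 of these had arrays that did not overlap, 830 passed the bound on total RNA and 268 passed all, which is 3.43% of the bright clusters. Silvestrol arrays lay above IFNg arrays without overlap in 41.5% of bright clusters. These 3 contrasts chose the members, so their values below are descriptions and carry no test. The nearest clusters on both sides of the bound of 1 had polysomal differences of 1.001 and 0.999, and those at the bound of 0.5 had total differences of 0.497 and 0.506, so no gap sets the members apart.

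Silvestrol is a plant rocaglate that clamps the RNA helicase eIF4A onto purine-rich RNA and so inhibits the scanning of many mRNAs by the small ribosomal subunit. Polysomal RNA is the RNA that sediments with strings of ribosomes and serves as a measure of what is being translated. How the polysomal fraction was separated is not given in the sources used here. U6 and U1 are small nuclear RNAs (snRNAs) of the spliceosome, 5S is an RNA of the large ribosomal subunit itself, 7SL is the RNA of the signal recognition particle, 7SK binds a transcription elongation factor in the nucleus, and Y RNAs bind the Ro protein. All of these are noncoding RNAs with many near-identical copies and pseudogenes in the genome. A probe group for one copy can bind RNA of another, so which copy gave a signal is uncertain for every one of these clusters.

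The 2 polysomal IFNg arrays stood apart from the other 10. Their mean intensities were 1237 and 1347, against 1469 to 1720 on the others, and their bright clusters had median log2 intensities of 9.44 and 9.52, against 9.75 to 10.1. These arrays are the lower side of the silvestrol difference, and all bright clusters had a median polysomal difference of 0.24. Whether this reflects the level of the arrays or a change in polysomal RNA was not tested. The median for bright clusters was -0.02 with quantile normalization over all arrays and -0.04 with centring on bright clusters. Both bring the arrays to a common level, so values near 0 follow from the scaling. Set against the polysomal DMSO arrays, the members' median was 1.01 and that of all bright clusters was -0.23. The conditions already put every member at or above 0 in that comparison, since they join the 2 polysomal bounds, so it is a description too. Bulk arrays cannot tell a change in RNA per cell from a change in the cells measured. Among markers of the line's lineage, MITF had a mean log2 intensity of 13.1, while MLANA and TYRP1 had 5.89 and 5.35 and were not bright. The leukocyte markers PTPRC and CD14 had means of 4.77 and 4.89.

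Small noncoding RNAs were the most frequent named members. A single gene was attached to 172 members, several genes to 18 and no gene to 78. Of the 172, 43 were U6 copies, 21 U1 copies, 16 5S copies, 5 copies of other snRNAs, 3 small nucleolar or Cajal body RNAs, 2 7SL copies and 1 a vault RNA, 91 in all. A further 4 of the clusters with several genes held only U6 genes, 2 only U1 genes and 2 only histone genes. The other single-gene members were 59 protein-coding genes, 5 mitochondrial ribosomal proteins, 5 ribosomal proteins or their pseudogenes, 2 histones and 10 other RNAs and pseudogenes. These families were formed after the values were seen. Among the 20 members with the largest polysomal difference, 12 were U6 copies.

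**Figure D1:**
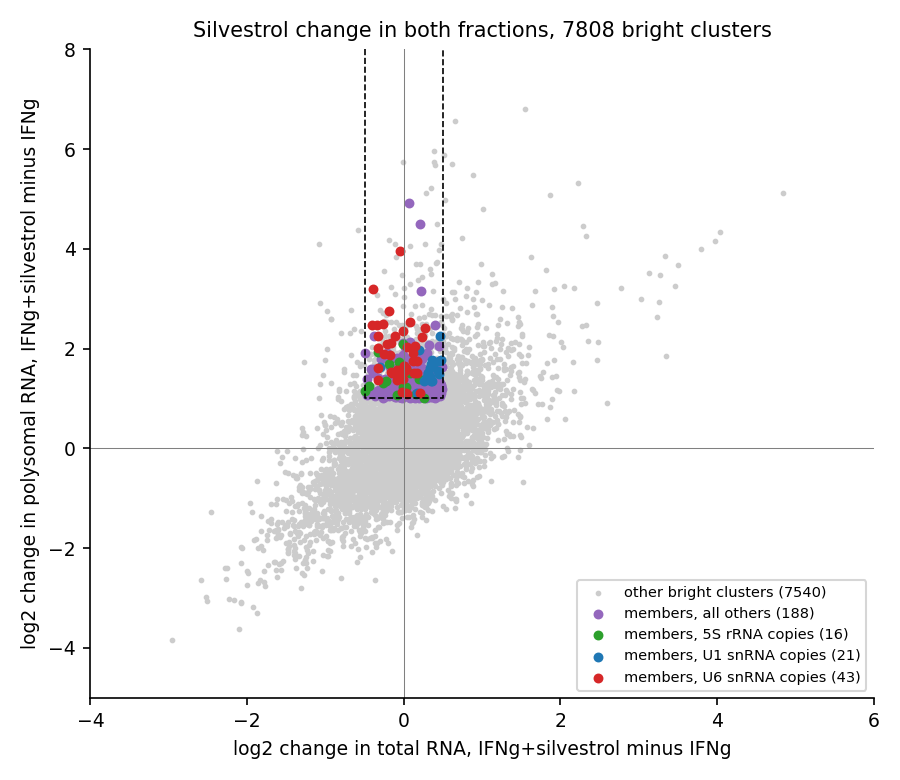
Each point is 1 of the 7808 bright clusters, placed by its log2 difference of IFNg+silvestrol minus IFNg in total RNA (horizontal) and in polysomal RNA (vertical). Colours mark the 268 members by RNA family, and the dashed lines are the bounds on both differences. U6 copies (red) reach to 3.95 in polysomal RNA, U1 copies (blue) crowd the right edge of the total RNA bound, and grey points inside the bounds failed on overlap or on the polysomal IFNg minus DMSO bound.

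The families differed in how many of their bright clusters were members. Of 58 bright U6 clusters, 43 or 74.1% were members, as were 21 of 40 U1 clusters (52.5%) and 16 of 39 5S clusters (41.0%), against 3.43% of all bright clusters. Of the other snRNA copies 5 of 15 (33.3%) were members, and of the small nucleolar and Cajal body RNAs 3 of 22 (13.6%). The share was 2 of 58 for 7SL clusters (3.45%), near that of all bright clusters, and 0 of 21 for 7SK and 0 of 10 for Y RNA, counts too small to set apart from it. Among other protein-coding genes, 59 of 3963 bright clusters (1.49%) were members. The median polysomal difference over all bright clusters of a family, members or not, was 1.63 for U6, 1.63 for U1 and 1.19 for 5S. It was 1.24 for small nucleolar and Cajal body RNAs and 1.20 for other snRNA copies. The median thus does not set 5S apart from these families. It was 0.82 for ribosomal proteins and their pseudogenes, 0.74 for Y RNA, 0.39 for 7SK and 0.26 for 7SL. For other protein-coding genes it was 0.08. The polysomal difference was above 0 for 56 of 58 U6, 40 of 40 U1 and 39 of 39 5S clusters, against 4865 of 7808 bright clusters. It was also above 0 for 20 of 21 7SK, 9 of 10 Y RNA and 57 of 57 histone clusters. The side alone thus does not set U6, U1 and 5S apart. For 7SL it was above 0 in 43 of 58 clusters, and for other protein-coding genes in 2163 of 3963. Copies of a family are not independent of each other, since their probes can bind the same RNA.

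The copies that were not members failed on different conditions. Of the U1 copies, 14 exceeded the bound of 0.5 in total RNA and none fell below it, and their family's median total difference was 0.38. Of the 5S copies, 6 fell below the total RNA bound and 15 had a polysomal difference under 1. Of the U6 copies, 7 had a polysomal difference under 1, 6 were outside the total RNA bound and 5 had overlapping arrays, with some failing on several conditions. Histone mRNAs had a median polysomal difference of 2.40 over 57 bright clusters with 1 gene, larger than that of U6, but only 2 of these were members. Another 2 members were clusters of several histone genes. The 57 histone clusters had a median polysomal difference of IFNg minus DMSO of -1.68, beyond the bound of 1. Their median total RNA difference of IFNg+silvestrol minus IFNg was 0.59, beyond the bound of 0.5, and 53 of the 57 were above 0. Against polysomal DMSO their silvestrol median was 0.53.

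**Figure D2:**
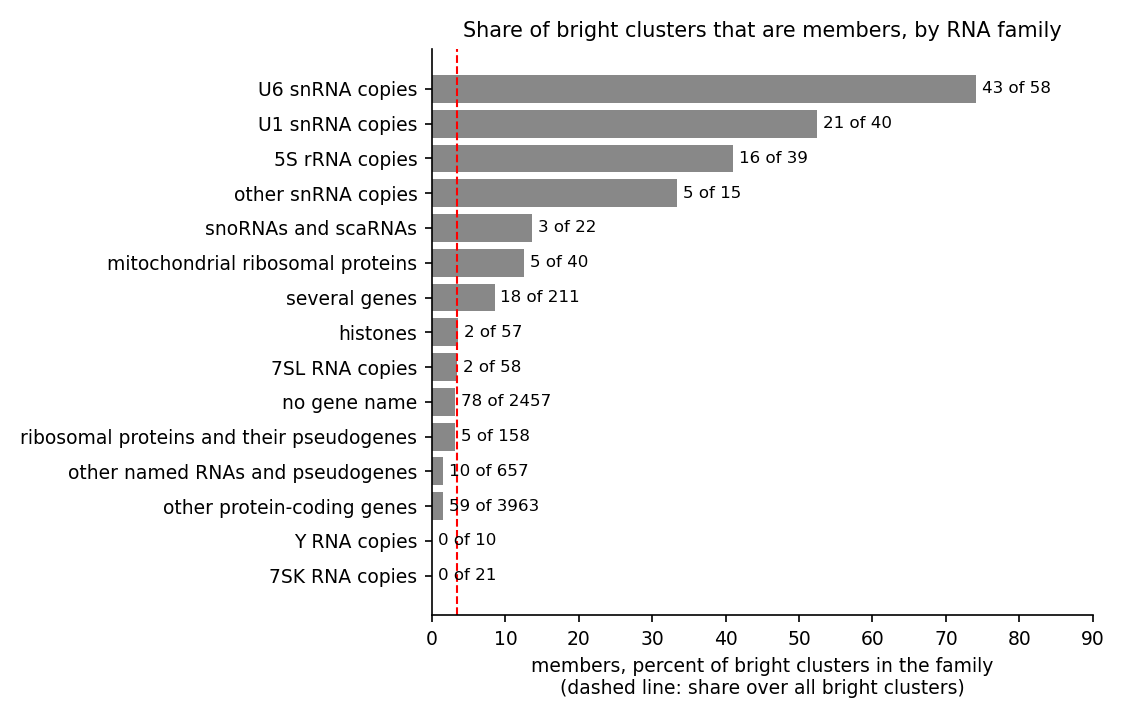
Bars give the percent of bright clusters that are members for each family with at least 10 bright clusters, with the counts beside them, and the dashed line marks 3.43% for all bright clusters. U6, U1 and 5S copies have the highest shares, 74.1%, 52.5% and 41.0%, and no 7SK or Y RNA copy is a member.

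The U6 copies had the largest polysomal differences among named members. RNU6-180P, a U6 pseudogene copy on chromosome 1, had polysomal log2 intensities of 13.13 and 12.35 with IFNg+silvestrol, against 9.07 and 8.51 with IFNg and 9.64 and 9.32 with DMSO. In total RNA it had 8.66 and 9.59 with IFNg+silvestrol, against 9.32 and 9.04 with IFNg and 7.72 and 9.15 with DMSO. Its polysomal difference of 3.95 is 15.5-fold, and both silvestrol arrays lay above all 10 others, while the total RNA arrays of the 3 treatments overlapped. RNU6-373P, a copy on chromosome 2, had polysomal values of 12.26 and 11.15 with IFNg+silvestrol, against 8.63 and 8.40 with IFNg and 9.73 and 8.66 with DMSO. RNU6-31P, a brighter copy on the same chromosome, had 15.59 and 14.82 with IFNg+silvestrol, against 12.48 and 12.41 with IFNg and 13.28 and 13.04 with DMSO. In each of these copies replicate 1 of IFNg+silvestrol was the higher of the pair. RNU6-128P, RNU6-1084P, RNU6-840P, RNU6-580P and RNU6-310P followed, with polysomal differences between 2.42 and 2.52 and total RNA differences between -0.40 and 0.27.

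Over the 43 U6 members the median polysomal difference was 1.75, or 3.36-fold, and the median total RNA difference was -0.05. Their median polysomal log2 intensities on single arrays were 12.16 and 11.04 with IFNg+silvestrol, against 9.07 and 9.07 with IFNg and 9.73 and 9.32 with DMSO. In total RNA the medians were 9.18 and 9.59 with IFNg+silvestrol, against 9.32 and 9.64 with IFNg and 8.82 and 9.45 with DMSO. The silvestrol polysomal arrays were thus the highest of the 12, and replicate 1 exceeded replicate 2 by more than the other treatments' pairs differed in polysomal RNA. Without replicate 1 of that group the median over all 58 bright U6 clusters was 1.21, and without replicate 2 it was 2.15.

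The U1 members were brighter, with mean log2 intensities from 7.68 to 18.2, and their polysomal values came level with total RNA under silvestrol. RNVU1-2, a U1 variant copy with the largest polysomal difference among the U1 members, had polysomal values of 14.51 and 14.47 with IFNg+silvestrol, against 12.07 and 12.40 with IFNg and 12.07 and 12.56 with DMSO. Its total RNA values were 14.24 and 14.16 with IFNg+silvestrol, against 13.96 and 13.51 with IFNg and 13.72 and 13.39 with DMSO. Both fractions were thus highest with silvestrol, and the total RNA difference of 0.47 only just met the bound. Over the 21 U1 members the median polysomal difference was 1.51 and the median total RNA difference was 0.34. Among all bright U1 clusters, members or not, the polysomal difference reached 3.32. RNVU1-18, RNU1-3 and a cluster of several U1 genes had identical values on every array. In all, 12 members fell into 5 groups of identical values, and the 268 members held 261 distinct profiles.

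The 5S members had smaller differences. RNA5SP85, a 5S pseudogene with the largest difference of the family, had polysomal values of 11.02 and 11.71 with IFNg+silvestrol, against 9.67 and 8.87 with IFNg and 9.86 and 10.13 with DMSO. In total RNA its values ran from 9.67 to 10.1 over the 6 arrays, with no order between the treatments. The 16 members had a median polysomal difference of 1.33 and a median total RNA difference of -0.08. VTRNA1-1, a vault RNA, had polysomal values of 8.36 and 7.70 with IFNg+silvestrol, against 5.75 and 6.71 with IFNg and 7.30 and 6.61 with DMSO. SCARNA7, one of the guide RNAs that direct modification of snRNAs in Cajal bodies, had 13.31 and 12.20 with IFNg+silvestrol, against 11.07 and 11.73 with IFNg and 10.03 and 11.05 with DMSO. It was poor in polysomal RNA throughout, with total RNA values of 12.9 to 13.9, and its 2 silvestrol polysomal arrays lay on either side of the lowest total RNA value. The largest member of each family here, and the other genes outside the naming rule, were picked after their values were seen.

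**Figure D3:**
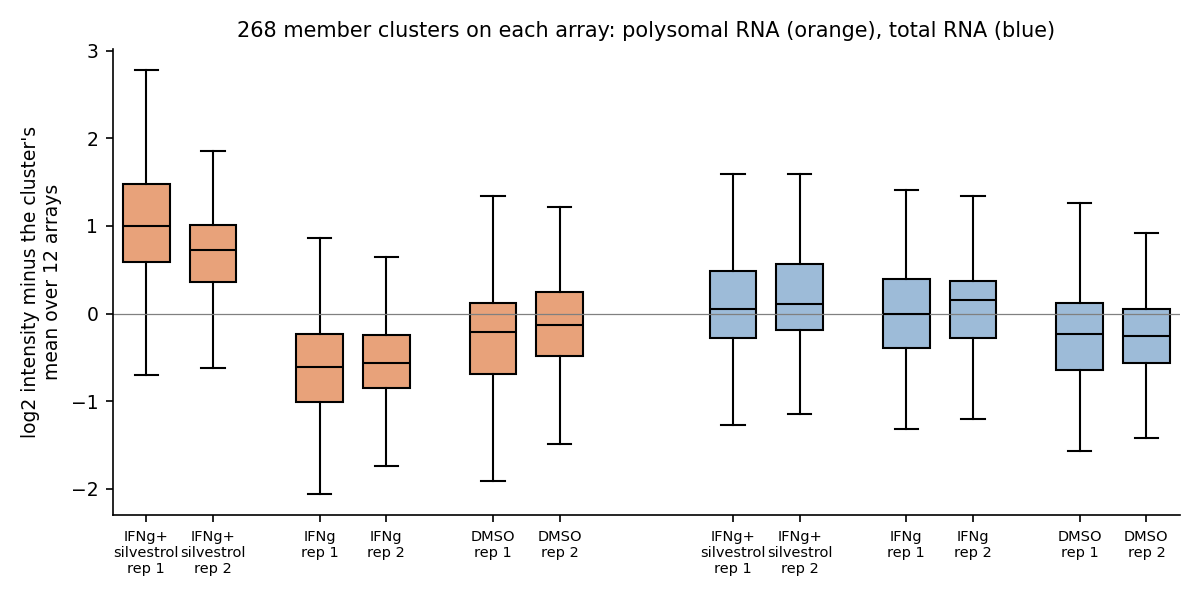
Boxes show the 268 members on each of the 12 arrays as log2 intensity minus the cluster's own mean over the 12 arrays (median and quartiles, whiskers to 1.5 times the quartile range, points beyond not drawn). Polysomal RNA is orange and total RNA is blue. The silvestrol polysomal arrays stand above 0, as the choice of members requires, and the 2 total DMSO arrays have the lowest medians among the total RNA arrays.

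The families also differed in how polysomal RNA compared with total RNA, which sets intensities of the same probes side by side in separately prepared RNA. The conditions on both fractions already put each member higher in this measure with IFNg+silvestrol than with IFNg. That step is therefore a description. In U6 members polysomal minus total was 1.44 in the median with IFNg+silvestrol, against -0.34 with IFNg and 0.27 with DMSO. In 5S members it was 1.15 with IFNg+silvestrol, against -0.33 with IFNg and 0.18 with DMSO. In U1 members it was -0.07 with IFNg+silvestrol, against -1.28 with IFNg and -0.96 with DMSO, so U1 was lower in polysomal than in total RNA without silvestrol and level with it under silvestrol. In the 59 protein-coding members it was 1.18 with IFNg+silvestrol, against 0.00 with IFNg and 0.75 with DMSO. All members had medians of 0.80 with IFNg+silvestrol, against -0.62 with IFNg and 0.15 with DMSO, and all bright clusters had -0.22 with IFNg+silvestrol, against -0.37 with IFNg and -0.02 with DMSO. In DMSO cells alone, both polysomal arrays lay above both total arrays in 84 members, or 31.3%, against 24.0% of bright clusters, and below in 69, or 25.7%, against 22.4%. All 21 U1 members were among the 69, as were 2 of 16 5S members and 1 of 43 U6 members. Over all bright clusters of these families the arrays lay so for 36 of 40 U1, 6 of 39 5S and 1 of 58 U6 clusters. The U1 family thus shares this with its members.

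**Figure D4:**
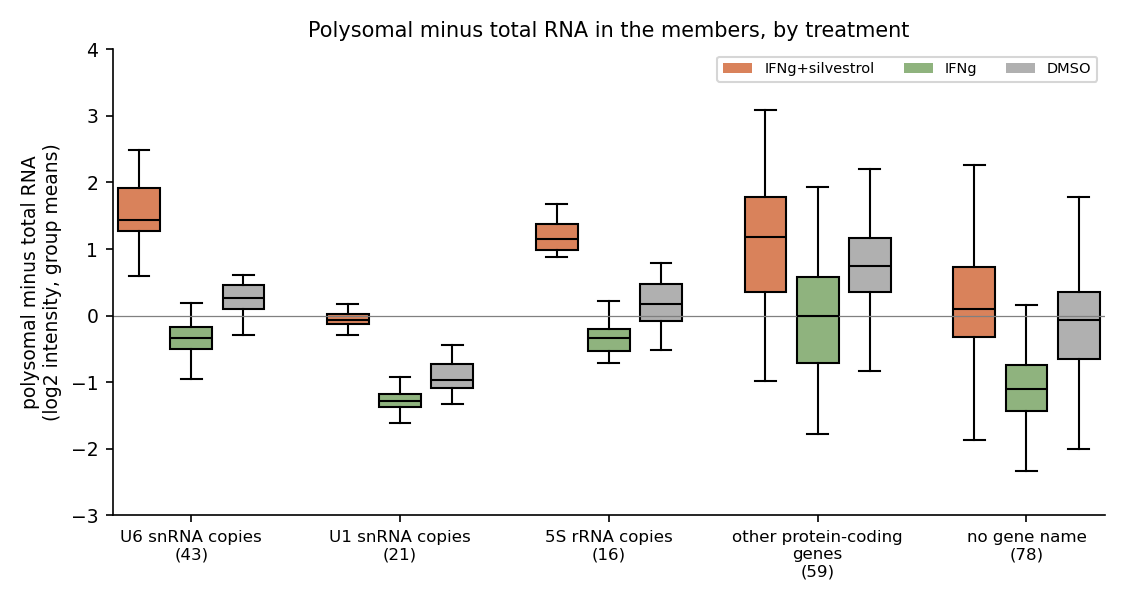
Boxes show polysomal minus total RNA (log2 intensity, group means) of the members of 5 families under IFNg+silvestrol, IFNg and DMSO, with the number of members under each family name (median and quartiles, whiskers to 1.5 times the quartile range, points beyond not drawn). U6 and 5S copies lie above 0 with silvestrol, while U1 copies lie near 0 with silvestrol and near -1 in the other treatments. The choice of members requires higher values with IFNg+silvestrol than with IFNg.

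Among protein-coding members GUK1, the enzyme that converts GMP to GDP, had the largest polysomal difference outside the histones. It had polysomal values of 13.40 and 13.00 with IFNg+silvestrol, against 11.16 and 11.52 with IFNg and 12.01 and 11.64 with DMSO. Its total RNA values were 11.53 and 12.06 with IFNg+silvestrol, against 11.45 and 12.16 with IFNg and 11.45 and 10.14 with DMSO. The polysomal difference of 1.86 is 3.64-fold, and both silvestrol arrays were above the other polysomal arrays. DALRD3, a factor in tRNA methylation, had 13.30 and 13.41 with IFNg+silvestrol, against 11.11 and 11.99 with IFNg and 12.36 and 11.73 with DMSO. S100A4, a calcium-binding protein linked to cell motility, had 9.65 and 9.19 with IFNg+silvestrol, against 7.46 and 8.13 with IFNg and 7.37 and 9.98 with DMSO, so one DMSO array was above both silvestrol arrays. ADAM15, a membrane metalloprotease, was the protein-coding member richest in polysomal RNA, with polysomal minus total of 2.20 in DMSO cells. Its polysomal values were 14.43 and 13.46 with IFNg+silvestrol, against 13.09 and 12.66 with IFNg and 11.96 and 12.75 with DMSO.

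Clusters with symbols of mitochondrial and of cytosolic ribosomal proteins gave 5 members each. The mitochondrial ones, all of the small subunit, were MRPS14, MRPS18A, MRPS22, MRPS27 and MRPS28, of 40 bright mitochondrial ribosomal protein clusters, and their polysomal differences were between 1.22 and 1.58. MRPS22 had polysomal values of 15.41 and 15.35 with IFNg+silvestrol, against 14.12 and 13.91 with IFNg and 14.18 and 14.55 with DMSO, with total RNA between 13.8 and 14.4 on all 6 arrays. Another list joined symbols of cytosolic ribosomal proteins, which take in pseudogenes, and other mRNAs with a 5′ terminal oligopyrimidine tract. It gave 5 members of 159 bright clusters, or 3.14%, which is near the share of all bright clusters. Its bright clusters had a median polysomal difference of IFNg minus DMSO of -1.17, beyond the bound of 1. The 5 members were 3 pseudogenes, RPL36AP13, RPS2P28 and RPS15AP24, and 2 clusters labelled RPL41 on chromosomes 5 and 7. The RPL41 gene lies elsewhere, so what these 2 clusters measure is uncertain. The histone members with 1 gene were H4C12 and H2AC20, core histones packaged into nucleosomes. H4C12 had polysomal values of 14.09 and 14.40 with IFNg+silvestrol, against 11.17 and 13.20 with IFNg and 13.12 and 12.97 with DMSO, and its IFNg replicates were far apart.

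No member came from the other lists. The 16 measured IFNg response genes were all called higher in total RNA with IFNg against DMSO and none was a member. Their polysomal differences of IFNg minus DMSO ran from 2.29 to 11.98, so the bound of 1 left all of them out in advance. None of 6 immediate early genes was a member, and each exceeded the bound on total RNA: their median difference of IFNg+silvestrol minus IFNg was 3.05 in polysomal and 2.00 in total RNA. Of 4 cap-binding and eIF4A factors measured, EIF4EBP1, an inhibitor of the cap-binding protein, came nearest, with a polysomal difference of 2.21, a total RNA difference of -0.01 and a polysomal IFNg minus DMSO difference of -2.79 that failed the bound. The 4 integrated stress response genes and the 3 melanocyte genes measured held no member either. Lists this short would seldom hold a member at a share of 3.43%, so nothing is read from their absence.

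Because silvestrol acts at the start of mRNAs, the first bases of the 5 protein-coding members with the largest polysomal differences are shown for their purine content. They are RefSeq gene starts on GRCh38.p14, read 5′ to 3′ along the mRNA strand, and the start used in A375 cells may differ. Capitals mark the letters GAGA or AGAG, a 4-base purine run, searched on the mRNA strand only and chosen with the drug's known preference in mind.
H4C12 (chr6:27831531-27831560, minus strand): acaaagcgttgggtGAGActcctcttgctc
GUK1 (chr1:228140084-228140113, plus strand): ggagggcgctgtgctgaacgcccctgcggt
DALRD3 (chr3:49021476-49021505, minus strand): AGAGcaagcggaagggcaagctgtgatagt
SPRR2B (chr1:153071582-153071611, minus strand): taaactcctggtactcgagcaccgatctgc
S100A4 (chr1:153545777-153545806, minus strand): attcttcccctctctacaaccctctctcct
Of these 30-base starts, those of H4C12 and DALRD3 hold the letters. In the first 50 bases, GAGA or AGAG (which overlap in a longer run) was found in 12 of 55 members with a RefSeq start on the same chromosome, or 21.8%, against 1121 of 3424 bright genes, or 32.7%, and 9576 of 27305 starts in all, or 35.1%. No test was made of this difference, and a match is not a binding site.

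Both replicates were set apart to describe the polysomal difference in arrays that did not choose the clusters. Arrays of the same number were subtracted, though the labels do not pair them. The replicates may be technical, and probes of a family's copies can bind the same RNA. The counts are therefore descriptions and not independent support. Applying the conditions to the replicate 1 arrays alone chose 408 clusters, or 5.28% of those bright there. In the replicate 2 arrays, 376 of these, or 92.2%, had a polysomal difference of IFNg+silvestrol minus IFNg above 0, against 60.4% of bright clusters, and 198, or 48.5%, reached 1, against 16.9%. Their median in replicate 2 was 0.97, against 0.22 for bright clusters. Applying them to the replicate 2 arrays chose 182 clusters, of which 171, or 94.0%, were above 0 in replicate 1, against 61.5% of bright clusters, with a median of 1.27 against 0.24. The choices shared 58 clusters. Of the U6 copies, 38 were chosen on replicate 1 and 26 of these reached 1 in replicate 2, and 23 were chosen on replicate 2, all of which reached 1 in replicate 1.

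**Figure D5:**
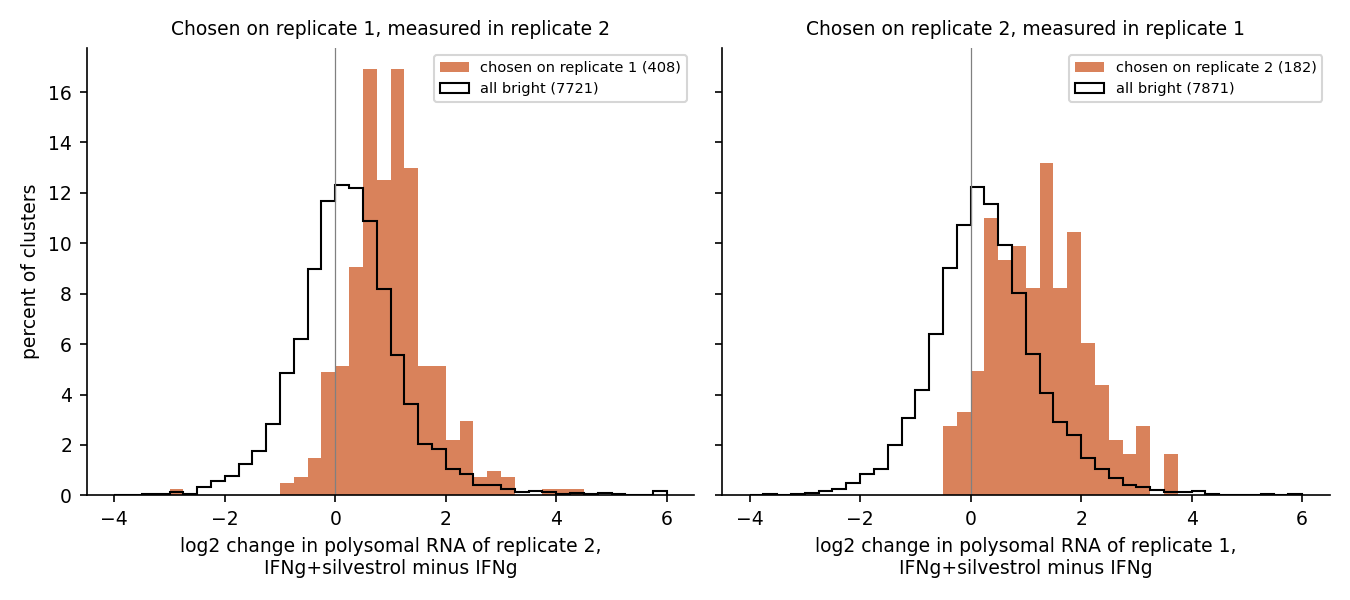
Histograms give the percent of clusters by their log2 polysomal difference of IFNg+silvestrol minus IFNg in the replicate that did not choose them (orange), beside all bright clusters (black line), with values outside -4 to 6 drawn in the end bins. On the left 408 clusters chosen on replicate 1 have a median of 0.97 in replicate 2, and on the right 182 clusters chosen on replicate 2 have a median of 1.27 in replicate 1. Bright clusters have medians of 0.22 and 0.24.

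Total RNA against DMSO had no condition of its own and was tested with limma over all 65535 clusters, with Benjamini-Hochberg adjustment and a threshold of 0.05. It is not independent of the choice. The bound on polysomal IFNg minus DMSO left 268 of 830 clusters, and all bright clusters had a median of -0.44 in that difference. The bound of 0.5 in total RNA also ties the 2 comparisons below to each other. Members set beside bright clusters are therefore a description. With IFNg+silvestrol, 10 members were called higher than DMSO and 0 lower, against 3.23% of bright clusters called higher and 1.33% lower, and 0.534% and 0.179% of all clusters. At an unadjusted p below 0.05 the count in either direction was 49, or 18.3%, against 24.3% of bright clusters. With IFNg alone, 4 members were called higher and 0 lower, against 1.83% and 0.102% of bright clusters and 0.287% and 0.0244% of all clusters, and 40 members had an unadjusted p below 0.05, or 14.9%, against 17.1% of bright clusters. Both comparisons use the same 2 DMSO arrays. The members' median difference was 0.33 with IFNg+silvestrol and 0.22 with IFNg, against -0.08 and -0.10 for all bright clusters. Both total arrays lay above both DMSO arrays in 125 members with IFNg+silvestrol, against 24.4% of bright clusters, and in 83 with IFNg, against 17.1%. They lay below in 17 and 12 members, against 30.5% and 24.9%. The counts of calls rest on single arrays: with IFNg+silvestrol 3 and 2 members were called without total silvestrol replicates 1 and 2, and 4 and 5 without total DMSO replicates 1 and 2. With IFNg, 2 were called without any one of the total silvestrol arrays, the total IFNg arrays or total DMSO replicate 1.

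No U6, U1 or 5S member was called in either comparison, and their lowest adjusted p was 0.279 (limma). All 21 U1 members had both total silvestrol arrays above both DMSO arrays, with a median difference of 0.55. So did 37 of 40 bright U1 clusters, or 92.5%, against 24.4% of all bright clusters, so the family shares this with its members. Among 43 U6 members the arrays lay so for 15, or 34.9%, against 19 of 58 bright U6 clusters, or 32.8%, and the members' median was 0.26.

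The clusters called in total RNA were mostly without a gene name. TC0600007655.hg.1, which has no gene name in the array annotation, had the largest polysomal difference of all members, 4.92. Its polysomal values were 14.48 and 14.32 with IFNg+silvestrol, against 11.62 and 7.35 with IFNg and 8.15 and 9.78 with DMSO, and its total RNA values were 12.59 and 12.71 with IFNg+silvestrol, against 13.27 and 11.89 with IFNg and 4.88 and 7.96 with DMSO. In total RNA it rose by 6.23 ± 1.15 (log2, SE) with IFNg+silvestrol against DMSO (limma adjusted p = 0.0233) and by 6.16 ± 1.15 with IFNg against DMSO (limma adjusted p = 0.0458). Its replicates differed by 4.27 in polysomal IFNg cells, so the polysomal IFNg mean stands on values far apart. TC0600007660.hg.1, also unnamed and on chromosome 6, showed the same spread, with polysomal values of 14.66 and 14.45 with IFNg+silvestrol, against 12.24 and 7.90 with IFNg and 9.32 and 9.24 with DMSO. In total RNA it rose by 5.12 ± 0.95 with IFNg+silvestrol against DMSO (limma adjusted p = 0.0237), and with IFNg against DMSO the difference was 4.91 ± 0.95 (adjusted p = 0.0567). With IFNg+silvestrol, both calls were lost without either total silvestrol array or total DMSO replicate 1 and with a pseudocount of 16. The first was also lost with an intensity trend and robust variances, and the second without total DMSO replicate 2. Over 21 alternatives the adjusted p then lay between 0.0034 and 0.267 for the first cluster and between 7.5e-05 and 0.203 for the second. The IFNg call of the first cluster held under 6 of the 21, with adjusted p between 0.0057 and 0.575, and was lost without any single total RNA array but DMSO replicate 2.

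The named members called in total RNA were TMSB4XP1 and BATF3, both with IFNg+silvestrol against DMSO. TMSB4XP1, a pseudogene of thymosin beta-4 that its parent mRNA may also bind, had total RNA values of 13.03 and 14.02 with IFNg+silvestrol, against 12.48 and 13.78 with IFNg and 10.99 and 10.89 with DMSO. It rose by 2.58 ± 0.47 with IFNg+silvestrol (limma adjusted p = 0.0229), and with IFNg the difference was 2.19 ± 0.47 (adjusted p = 0.116). Its polysomal values were 13.13 and 13.77 with IFNg+silvestrol, against 10.47 and 11.50 with IFNg and 10.24 and 10.83 with DMSO, so polysomal IFNg values stayed near DMSO while total RNA values did not. BATF3, a transcription factor of the AP-1 family, had total RNA values of 9.55 and 9.49 with IFNg+silvestrol, against 8.94 and 9.32 with IFNg and 8.33 and 7.45 with DMSO. It rose by 1.63 ± 0.31 with IFNg+silvestrol (limma adjusted p = 0.0276), and with IFNg the difference was 1.24 ± 0.31 (adjusted p = 0.237). Its polysomal values were 9.90 and 9.92 with IFNg+silvestrol, against 8.50 and 8.93 with IFNg and 7.91 and 8.17 with DMSO. The call of TMSB4XP1 was lost without total silvestrol replicate 2 or either total DMSO array and with a pseudocount of 16, and its adjusted p lay between 0.0016 and 0.255 over the 21 alternatives. That of BATF3 was lost without either total silvestrol array or total DMSO replicate 2, with an intensity trend and robust variances, and when only the arrays compared were fitted, with adjusted p between 0.013 and 0.223.

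In the same fit the polysomal difference that chose the members passed the threshold for 88 of 268, against 6.83% of bright clusters and 1.09% of all clusters, and nothing is read from this count. The difference between the fractions in response to silvestrol was called for none of the members (limma interaction, 178 or 66.4% at an unadjusted p below 0.05, against 15.1% of bright clusters), against 0.141% of bright and 0.0183% of all clusters called higher, and it too contains the contrasts of the choice. Members were spread over the chromosomes much as bright clusters were. Chromosome 1 held 73 members, 27.2% against 22.3% of bright clusters, and chromosome 8 held 29, 10.8% against 8.06%. Within 10 rows of the table from another member lay 34 members, or 12.7%.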

How the data were processed

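The deposited table gives 1 intensity on a linear scale per transcript cluster and array. What software, normalization and genome build lie behind it is not given in the sources used here, and it holds no detection calls. Each array's column was matched to a sample by its title, and 0 columns were left unmatched. No pseudocount or filter was used before taking log2. All 12 arrays entered a single fit of 6 group means by limma 3.58.1 under R 4.3.3 (6 residual and 6.72 prior degrees of freedom), after it had been tested on simulated data. Figures used matplotlib 3.10.9. The number of arrays limits the precision.

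Names came from GEO's platform annotation, which can be old: 16130 clusters had 1 gene symbol, 419 several and 48986 none, and no cluster with several was named. Of the 172 members with 1 gene, 88 were updated through the gene ID and 80 through the symbol in RefSeq's table, and 4 kept their name. Named were the 12 members with the largest polysomal change, the 8 with the largest polysomal minus total difference in DMSO cells and the members of the gene lists. Of those without a single gene only the 2 largest were named. The members, gene lists, families and motif were chosen with earlier results of these data known.

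The labels do not say that a replicate number marks a shared culture or day, and the main fit did not take the numbers to pair the samples. The choice on single replicates did subtract arrays of the same number. Deviations of same-numbered arrays from their group means correlated between -0.07 and 0.21 over all clusters for the 15 pairs of groups, and between -0.19 and 0.57 over bright clusters, highest for total RNA with IFNg+silvestrol and with IFNg. In the comparisons tested the correlation was 0.02 for IFNg+silvestrol with DMSO and 0.00 for IFNg with DMSO. Alternatives were other scalings, a pseudocount, other bounds, other fits, the replicate block and leaving out arrays. Sequences are RefSeq's, GRCh38.p14.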

Additional observations from a re-analysis of the deposited data

How the results depend on the processing

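The members' median differences in total RNA and the U6, U1 and 5S polysomal medians kept their direction under every alternative run for them. Total RNA differences of single members without a call did not all do so. That of RNU6-128P ran from -0.51 to 0.47 with IFNg against DMSO. That of RNU6-840P ran from -0.59 to 0.79 with IFNg+silvestrol against DMSO. The number of members moved to 93 with a polysomal bound of 1.5 and to 162 with a total RNA bound of 0.25, and the U6 copies among them to 67 with an intensity bound of 6. Scaling changed which clusters were members more than how many: quantile normalization over all arrays gave 251, of which 163 were among the 268, and centring on the bright clusters gave 260, of which 148 were, with 44 and 43 U6 copies. Both scalings bring the arrays to a common level, which by itself puts the median polysomal difference of all bright clusters near 0. That median was 0.24 as deposited and -0.02 and -0.04 after them, and nothing is read from its sign. The medians of U6, U1 and 5S went to between 0.90 and 1.35. Leaving out arrays gave 182 to 408 members and 23 to 46 U6 copies.

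Members called in total RNA with IFNg against DMSO numbered 8 with centring on bright clusters, 2 with a pseudocount of 16, 2 when only the arrays compared were fitted and 7 among clusters at or above the median intensity. With IFNg+silvestrol against DMSO they numbered 4 with the pseudocount. Without single arrays the counts ranged from 2 to 5 with IFNg and from 2 to 11 with IFNg+silvestrol, and the median differences from 0.20 to 0.27 and from 0.31 to 0.37. The IFNg count was 2 without any one of the total silvestrol arrays, the total IFNg arrays or total DMSO replicate 1. The IFNg+silvestrol count was 3 and 2 without total silvestrol replicates 1 and 2, and 4 and 5 without total DMSO replicates 1 and 2. The replicate block gave 6 calls with IFNg and 9 with IFNg+silvestrol, and the labels tie these samples by number alone. Chosen on replicate 2, the clusters had a median of 1.27 in replicate 1, against 0.97 the other way round. The cause of these differences was not tested.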
